A study of Mus musculus and Homo sapiens with 4 samples.

Results

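The genes described here are 32 genes of the hypoxia response and of glycolysis, measured in cells depleted of Merm1. They were chosen by symbol: every probe set whose platform symbol was one of the 32 names, in either letter case, was taken, and the mouse symbols Car9 and Car12 were matched as synonyms of CA9 and CA12. On the mouse array 29 of the 32 genes had a probe set with a single symbol, out of 18193 named genes, and 28 of the 29 were kept because that probe set lay above the array median in at least 1 array. On the human array 31 of the 32 had one, out of 19773 named genes, and all 31 were kept. Merm1 (Wbscr22, now BUD23) encodes a methyltransferase that modifies ribosomal RNA. The groups were LM8 knock-down, LM8 control, A375M knock-down and A375M control, with 1 array each. LM8 is a murine osteosarcoma line and A375M a human melanoma line. Knock-down lines were stably infected with a pSIREN-RetroQ retrovirus expressing a hairpin against mouse or human Merm1, and control lines with the pSIREN-RetroQ control virus, so all 4 groups carried a retroviral vector. The labels do not say whether a line was 1 clone or a pool.

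Cells respond to low oxygen mainly through the hypoxia-inducible factors. Their alpha subunits are hydroxylated by oxygen-dependent prolyl hydroxylases and then degraded through the von Hippel-Lindau protein, and when oxygen falls they accumulate, pair with ARNT and bind DNA at a short core motif. Their targets include the glucose transporter SLC2A1, most enzymes of glycolysis, PDK1, which inhibits pyruvate dehydrogenase in the mitochondria, and secreted factors such as VEGFA. Tumour cells often express many of these genes at normal oxygen as well. Both lines were grown at 37 °C under 5% CO2 in standard medium, and the labels name no low-oxygen treatment.

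Every value is a log2 RMA expression level of a probe set, and every difference is the knock-down level minus the control level of the same line. As each group was 1 array, the differences carry neither a standard error nor a test, and precision is limited by how few arrays there were. A technical gauge, which does not cover variation from culture to culture, was the median SD of the differences of probe sets that share a gene, at 0.12 in LM8 and 0.071 in A375M. The target itself read 8.48 in the knock-down and 10.61 in the control array of LM8, and 8.38 in the knock-down and 10.70 in the control array of A375M. Osteoblast markers lay above the array median in both LM8 arrays for 6 of 6 named genes, and melanocyte markers in both A375M arrays for 7 of 7. Identical values in the knock-down and the control array were held by 45.4% of A375M probe sets and 0.705% of LM8 probe sets. Poly-A transcripts spiked in before labelling, read by 24 probe sets, were higher by a median of 0.14 in the LM8 and 0.026 in the A375M knock-down array, and the part of these shifts in the results was not tested.

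Promoter sequences are shown for 4 mouse members: Eno2 and Adm, which are among the 3 members with the lowest LM8 differences, Bnip3 as another of the lower genes, and Ldha as a hypoxia target whose level hardly differed. The windows run from 250 bases before to 50 after an annotated start, from RefSeq on build GRCm38.p6, and lie at chr6:124769624-124769923 (minus strand) for Eno2, chr7:110627407-110627706 (plus strand) for Adm, chr7:138909457-138909756 (minus strand) for Bnip3 and chr7:46845554-46845853 (plus strand) for Ldha. Each is printed 5′ to 3′ on the gene's strand. Capitals mark the core motif of the hypoxia-inducible factors, searched as ACGTG and GCGTG on both strands, so that CACGT and CACGC are the same motif on the other strand and CACGTG, which is also an E-box, counts on both.
Eno2: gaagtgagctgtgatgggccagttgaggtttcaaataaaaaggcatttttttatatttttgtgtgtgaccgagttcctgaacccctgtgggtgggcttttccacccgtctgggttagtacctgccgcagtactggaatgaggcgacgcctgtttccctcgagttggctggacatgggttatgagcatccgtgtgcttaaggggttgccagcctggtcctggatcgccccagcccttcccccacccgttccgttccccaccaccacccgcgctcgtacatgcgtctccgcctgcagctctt
Adm: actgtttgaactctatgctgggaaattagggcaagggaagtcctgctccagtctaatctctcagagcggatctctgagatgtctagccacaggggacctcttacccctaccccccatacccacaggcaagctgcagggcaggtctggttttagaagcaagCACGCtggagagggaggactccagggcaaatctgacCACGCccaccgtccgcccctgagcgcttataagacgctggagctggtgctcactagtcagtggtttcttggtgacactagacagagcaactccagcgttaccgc
Bnip3: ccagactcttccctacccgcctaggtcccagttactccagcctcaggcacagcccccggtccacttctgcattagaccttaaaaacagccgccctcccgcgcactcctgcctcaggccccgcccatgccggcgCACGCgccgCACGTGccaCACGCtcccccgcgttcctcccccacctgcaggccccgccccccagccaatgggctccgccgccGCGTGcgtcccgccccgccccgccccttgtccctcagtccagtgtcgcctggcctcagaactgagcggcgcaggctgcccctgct
Ldha: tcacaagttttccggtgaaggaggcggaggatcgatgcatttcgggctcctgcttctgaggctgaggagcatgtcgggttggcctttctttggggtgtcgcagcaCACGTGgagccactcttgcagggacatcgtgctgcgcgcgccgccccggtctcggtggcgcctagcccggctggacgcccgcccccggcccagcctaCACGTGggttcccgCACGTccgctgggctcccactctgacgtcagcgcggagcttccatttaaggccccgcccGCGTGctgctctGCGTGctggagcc

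The window of Ankrd37 held 4 matches, that of Adm 2, that of Bnip3 5 and the printed one of Ldha 7, whereas that of Eno2 held 0. Ldha had another window, with 2 matches, and the printed one was taken because it held the most. With either Ldha window the number of matches did not order these 5 genes by their difference. Of the 32 members 30 had at least 1 window, and Bnip3l and Ndrg1 had none in the table used. Of these 43 windows 34 (79.1%) held at least 1 match, against 43.8% of all 32851 windows, and 24 (55.8%) held ACGTG, against 19.6% of all. The motif contains a CpG, and the member windows had a median of 20 CpG dinucleotides and a GC content of 63.0%, against 7 and 52.7% over all windows. The part of this composition in the motif share was not tested. Among the members lower in LM8 by at least 0.32 on the log2 scale, 6 of 9 windows (66.7%) held a match, against 23 of 29 (79.3%) among the remaining kept members. A match is a description of these letters and not a binding site.

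In LM8 the hypoxia and glycolysis genes were mostly lower in the knock-down array. Of the 28 kept members 24 (85.7%) were lower and 4 higher, whereas of all 11646 kept genes 46.0% were lower, 53.8% higher and 0.172% identical. Their median difference was -0.18, against 0.015 over all kept genes. The members were chosen with earlier results of these data known, so their shares in both lines are descriptions and not independent support. The arrays read bulk RNA, so fewer expressing cells and less RNA per cell cannot be told apart. At the 1.5-fold threshold 4 members (14.3%) were lower, against 1.31% of all kept genes, and these were Eno2, Ankrd37, Adm and Ndrg1, while 0 were higher, against 1.16%. Eno2 and Ankrd37 also passed 2-fold, as did 0.318% of all kept genes. With a smaller threshold of 0.32 on the log2 scale 9 members (32.1%) were lower, against 5.28%, the added genes being Car12, Bnip3, Egln3, Vegfa and Pfkp, and 0 were higher, against 5.78%. Markers of other cell types also differed between the LM8 arrays. Fibroblast markers lay above the median in both arrays for 4 of 4 genes, their log2 levels summing to 42.27 in the knock-down and 39.62 in the control array. One of them, the collagen gene Col3a1, read 8.96 in the knock-down and 6.59 in the control array, a difference of 2.37, and the others differed by -0.083 to 0.19. Melanocyte markers lay above the median in both for 3 of 8 genes, with Pmel, Tyr, Tyrp1, Dct and Mlana below the median. Over all 8, those below the median included, the log2 levels summed to 43.90 in the knock-down and 42.14 in the control array. The largest differences among them were those of S100b at 0.73 and of Dct, below the median, at 0.57. Leukocyte markers lay above the median in both arrays for 1 of 5 genes and endothelial markers for 1 of 4. The part of these markers in the results was not tested.

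**Figure D1:**
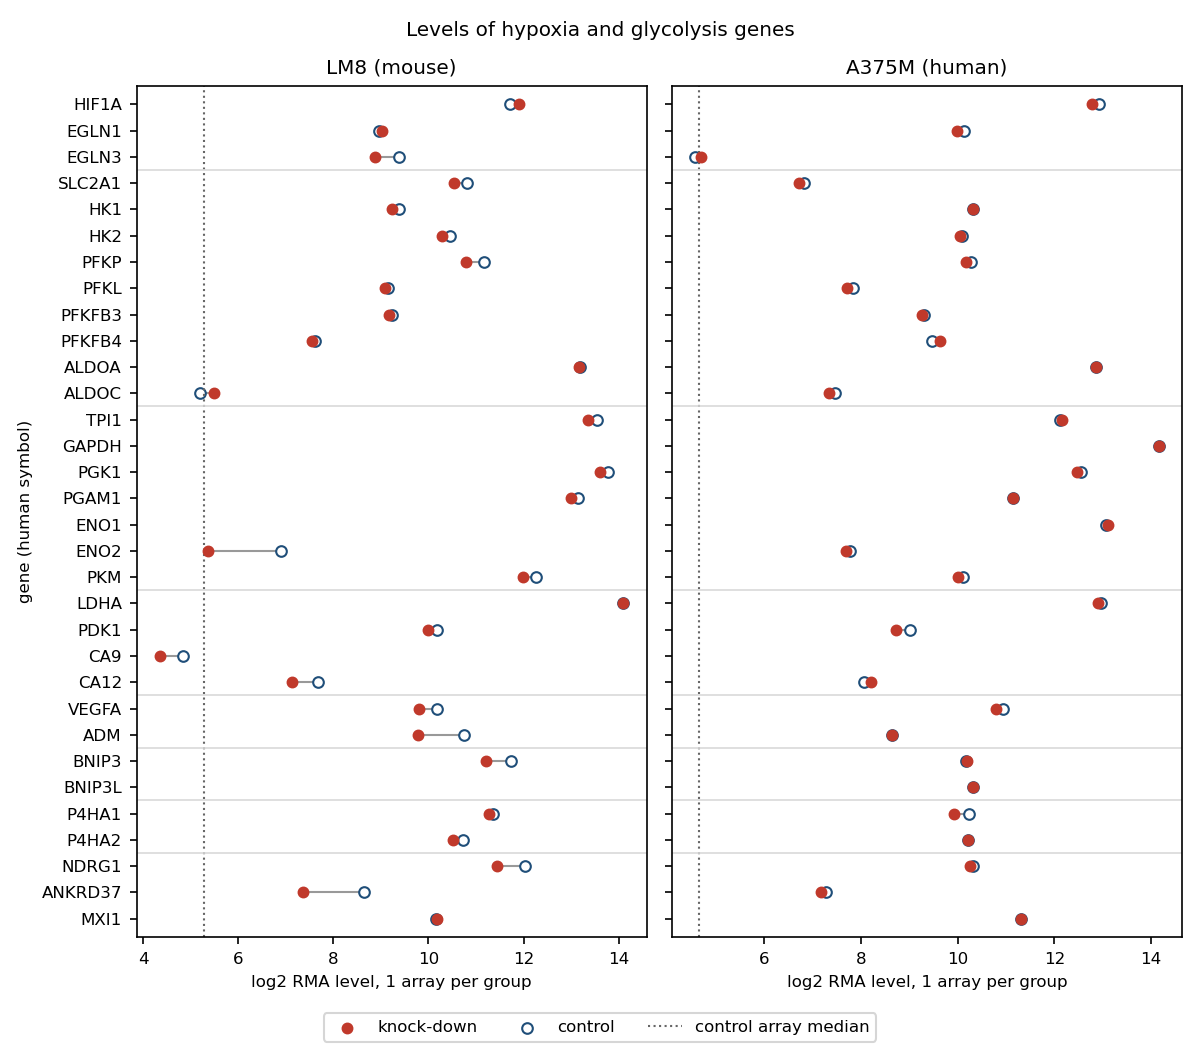
Log2 RMA level (x axis) of each member (y axis, human symbols grouped by role) in LM8 (left) and A375M (right), with filled points for the knock-down array, open points for the control array and a dotted line at the control array median. Levels of different genes rest on different probes and are not comparable. In LM8 the filled points of ENO2 (5.37 in knock-down, 6.90 in control), ANKRD37 (7.36 in knock-down, 8.63 in control) and ADM (9.78 in knock-down, 10.75 in control) lie well to the left of the open ones, while in A375M the points nearly coincide.

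Among the oxygen-sensing genes the members did not move together. Hif1a, which encodes the oxygen-regulated HIF-1 alpha subunit, read 11.89 in the LM8 knock-down array and 11.72 in the control array, a difference of 0.17, and its other probe set above the median differed by 0.054. Egln1, which encodes the main prolyl hydroxylase acting on HIF, read 9.02 in the knock-down and 8.96 in the control array, and its probe sets differed by 0.061 and -0.064. The Hif1a transcript was thus slightly higher and that of Egln1 of no settled sign. Egln3, a prolyl hydroxylase gene that is itself induced by HIF, read 8.87 in the knock-down and 9.39 in the control array, a difference of -0.52, with its other probe set at -0.31. The sign of Egln3 was the same on both probe sets, opposite to that of Hif1a.

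Genes of glucose uptake and the upper part of glycolysis were mostly lower by small amounts. Of 9 genes 8 (88.9%) were lower, against 46.0% of all kept genes, with a median of -0.082. Slc2a1, the widely expressed glucose transporter GLUT1, read 10.55 in the knock-down and 10.81 in the control array, and its 3 probe sets differed by -0.50 to -0.26. Pfkp, the platelet-type phosphofructokinase, which commits sugar to glycolysis, read 10.78 in the knock-down and 11.17 in the control array, and its 3 probe sets differed by -0.73 to -0.38. All 6 probe sets of these 2 genes were lower, by more than the gauge of 0.12, but the lowest Pfkp probe set passed the filter only through the control array, at 5.09 in the knock-down and 5.82 in the control array. The other two of Pfkp differed by -0.39 and -0.38. Hk2, the inducible hexokinase, differed by -0.18 on its only probe set, and Hk1, the widely expressed hexokinase, by -0.15 on the probe set that represents it and 0.20 on another. Pfkl, the liver-type phosphofructokinase, differed by -0.068, and by -0.12 to 0.021 over its 3 probe sets. Pfkfb3 and Pfkfb4, which make the phosphofructokinase activator fructose 2,6-bisphosphate, differed by -0.082 and -0.047. On the probe sets that represent them, the differences of these last 3 genes lie within the gauge. Aldoa, the main aldolase outside liver and brain, differed by -0.024 and on its 5 probe sets by -0.19 to -0.018. The exception was Aldoc, the brain-type aldolase, which read 5.50 in the knock-down and 5.19 in the control array, a difference of 0.31. It passed the filter only through the knock-down array, whose median was 5.28, and lay below the control array's median of 5.29, so no direction is read from it.

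In the lower part of glycolysis all 5 kept genes were lower, against 46.0% of all kept genes, with a median of -0.18. Eno2, the neuronal enolase, which is induced by hypoxia in many cell types, read 5.37 in the knock-down and 6.90 in the control array, so the knock-down value was 2.89-fold lower (-1.53). It ranked 9 from the lowest among 11646 kept genes, but it has 1 probe set, and the knock-down value lies just above the array median, so the size is imprecise. The remaining 4 genes differed far less. Tpi1, triosephosphate isomerase, differed by -0.18 to -0.14 on 3 probe sets, and Pgk1, phosphoglycerate kinase, by -0.23 to -0.16 on 3. Pgam1, phosphoglycerate mutase, differed by -0.15, and Pkm, the pyruvate kinase of muscle and tumour cells, read 11.98 in the knock-down and 12.25 in the control array, a difference of -0.27. Tpi1 and Pgk1 were thus lower on every probe set, while Pgam1 and Pkm had 1 probe set each. For Gapdh the mouse array offered only control probe sets under its symbol alone, and the 3 of them differed by -0.049 to -0.043. Its probe sets that also carry other symbols differed by -0.19 to -0.021 and entered no count. Eno1 had no mouse probe set named here.

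Genes of pyruvate fate and pH control differed unevenly. Ldha, the lactate dehydrogenase subunit that favours lactate formation, read 14.08 in the knock-down and 14.10 in the control array, a difference of -0.017. This was its only probe set, and it read nearly as high as the Gapdh control probe sets, at 14.20 to 14.43. Whether such bright probe sets understate a difference was not tested. Pdk1, pyruvate dehydrogenase kinase, read 9.99 in the knock-down and 10.17 in the control array on the probe set that represents it, a difference of -0.19. Its probe sets disagreed in sign, with others above the median at 0.036 and 0.14 and a dim one at -1.17. No direction can be read for Pdk1 from these arrays. Car12, the membrane-bound carbonic anhydrase XII, read 7.14 in the knock-down and 7.68 in the control array, a difference of -0.54, while another probe set near the median differed by -0.10 and a dim one by 0.069. Car9, carbonic anhydrase IX, a widely used hypoxia marker, was dim at 4.35 in the knock-down and 4.85 in the control array and was not counted.

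The secreted factors, the mitophagy gene and 2 further hypoxia-induced genes held most of the larger LM8 differences. Adm encodes adrenomedullin, a vasodilator peptide, and read 9.78 in the knock-down and 10.75 in the control array, which is 1.96-fold lower (-0.97), with its other probe set at -0.87. Vegfa, the endothelial growth factor, read 9.80 in the knock-down and 10.19 in the control array, a difference of -0.38, and -0.30 on the other. Both ligands were therefore lower on all their probe sets. Bnip3, a mitochondrial receptor for autophagy, read 11.20 in the knock-down and 11.73 in the control array, a difference of -0.53 on its only probe set. The probe sets annotated to its relative Bnip3l also carry a pseudogene's symbol, so that the 2 transcripts cannot be told apart, and they differed by -0.31 to -0.27 without entering any count. Ankrd37, an ankyrin-repeat protein gene known as a HIF-1 target, read 7.36 in the knock-down and 8.63 in the control array on its only probe set. This is 2.42-fold lower (-1.28), ranking 18 of 11646. Ndrg1, a stress-response gene strongly induced by hypoxia, read 11.45 in the knock-down and 12.04 in the control array, a difference of -0.59, and all 5 of its probe sets were lower, by -0.94 to -0.58. Thus 4 of the 5 were past 1.5-fold and the remaining one just short of it. Mxi1, a MYC antagonist, differed by 0.015, within the gauge, and by -0.0085 after repeated quantile normalization. The collagen prolyl hydroxylase genes P4ha1 and P4ha2, whose enzymes stabilise the collagen triple helix, differed by -0.081 and -0.21.

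**Figure D2:**
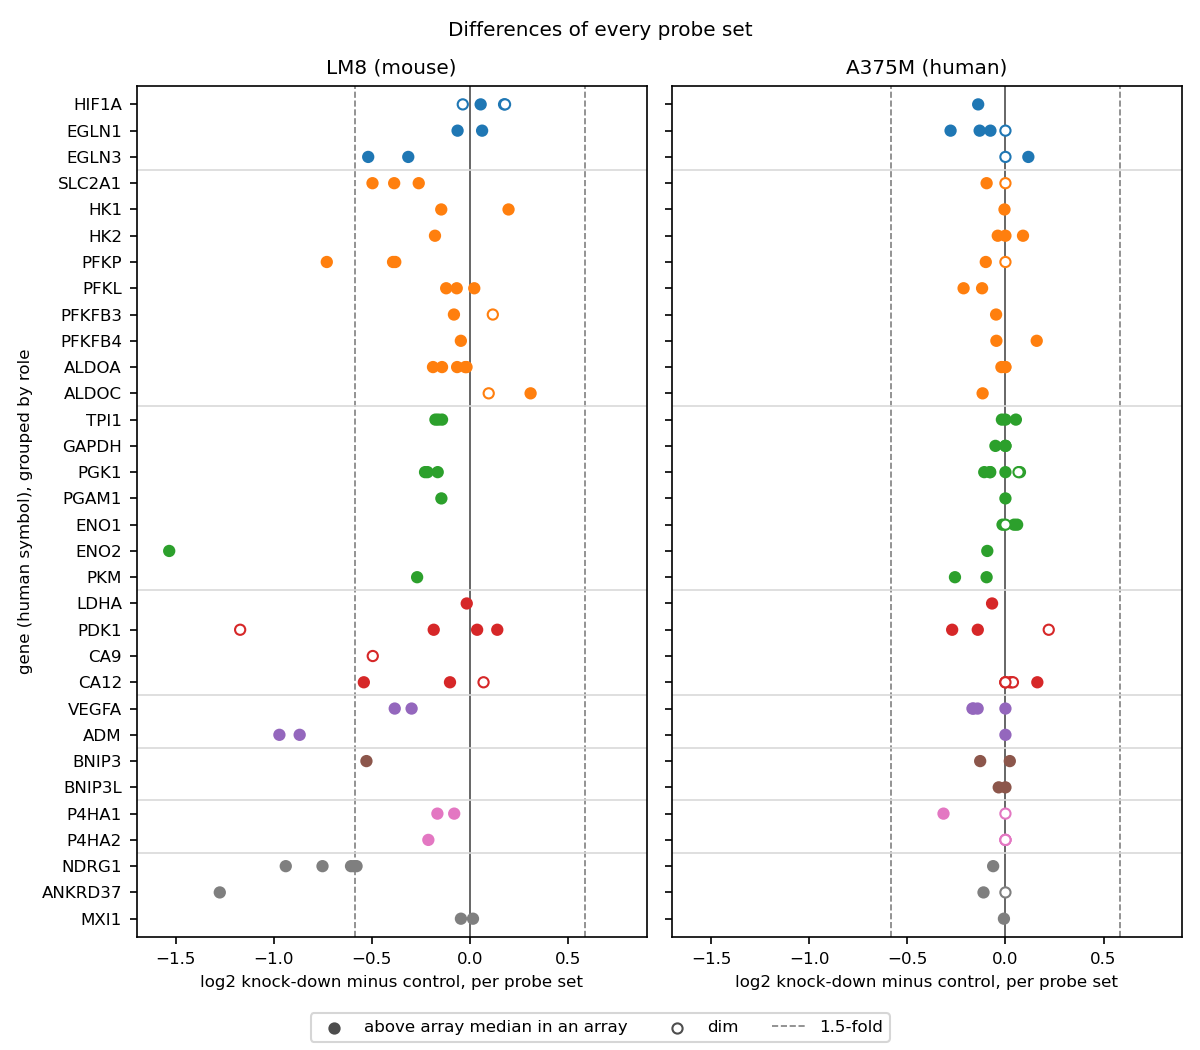
Difference in log2 level, knock-down minus control (x axis), of every probe set with a single symbol of each member (y axis, coloured by role), with filled points where the probe set lies above the array median in an array and open points where it is dim; dashed lines mark 1.5-fold. In LM8 all 5 NDRG1, 3 SLC2A1 and 3 PFKP probe sets lie left of 0, while PDK1 probe sets lie on both sides; in A375M the points cluster at 0.

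The direction was shared by most of the probe sets behind these genes. Of 57 kept member probe sets in LM8 48 (84.2%) were lower and 9 higher, against 48.3% of all 20546 kept probe sets with a single symbol being lower. Of these 57, 3 passed the filter through 1 array only, and of the remaining 54 46 (85.2%) were lower, against 48.2% of all. Of the 17 members with several kept probe sets, 11 were lower on all of them, 1 was higher on all, and 5 had both signs. The same count over all genes was not made, so these numbers are not read as particular to the members. RNA integrity, read as the 3' minus 5' value of control probe sets, was -0.18 in the knock-down and -0.18 in the control array for Gapdh, and 0.34 in the knock-down and 0.35 in the control array for beta-actin, so it hardly differed between the LM8 arrays. The beta-actin control probe sets differed by -0.0052 to 0.017.

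**Figure D3:**
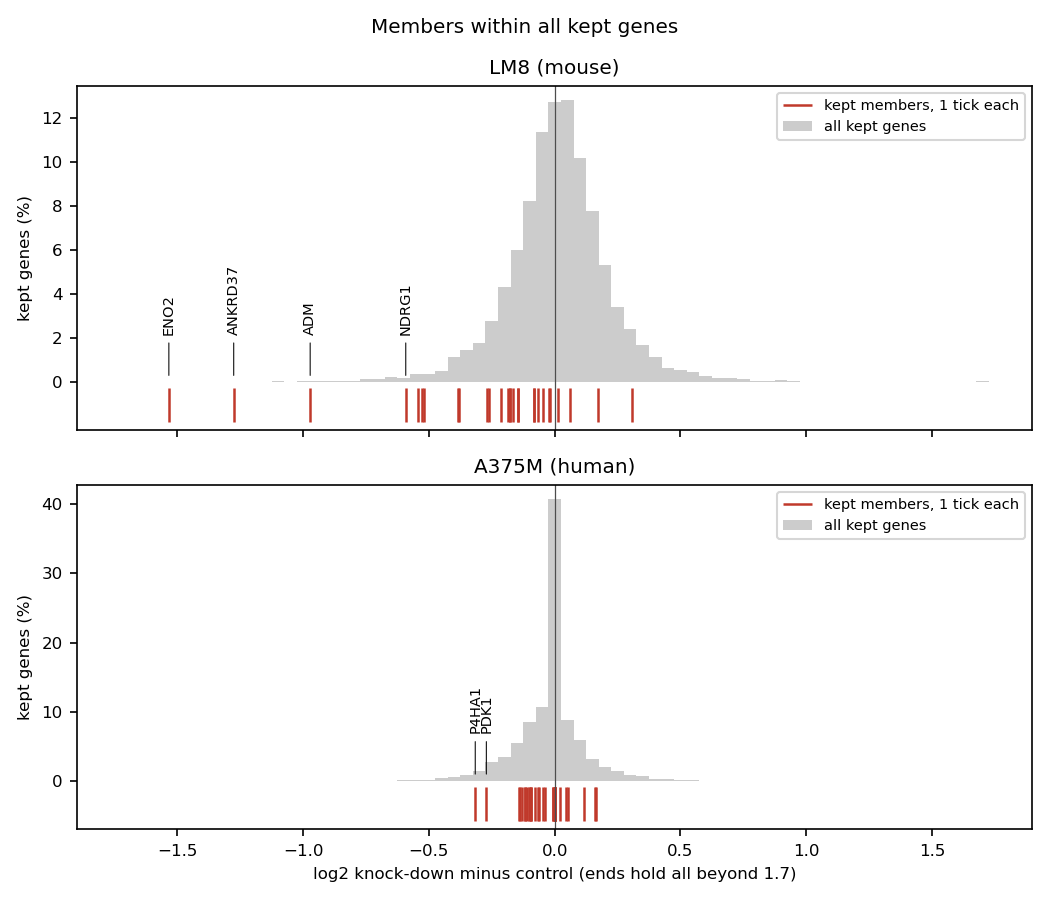
Distribution of the difference, knock-down minus control (x axis, log2), over all kept genes (grey bars, percent of kept genes) with 1 red tick per kept member, for LM8 (top, 28 members) and A375M (bottom, 31 members). The LM8 ticks are shifted left with a tail at ENO2, ANKRD37 and ADM, and the A375M ticks lie between -0.32 and 0.16.

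In A375M the same genes differed little. Of 31 kept members 20 (64.5%) were lower, 6 higher and 5 identical in both arrays, whereas of all 13244 kept genes 40.3% were lower, 29.0% higher and 30.8% identical. Counted over values that were not identical, 20 of 26 (76.9%) were lower, against 58.2% of all kept genes. Their median difference was -0.048, against 0 over all kept genes, and is smaller than the gauge of 0.071. The 3' minus 5' value of the beta-actin control probe sets was 1.00 in the A375M knock-down and 0.91 in the control array. Osteoblast markers lay above the median in both arrays for 5 of 8 genes, and these differed by -0.28 to 0.13. Over all 8 the log2 levels summed to 61.94 in the knock-down and 61.91 in the control array. Kept melanocyte markers differed by -0.097 to 0.35, leukocyte ones by -0.058 to 0.33, endothelial ones by -0.40 to 0.13 and fibroblast ones by -0.025 to 0. The part of any of these in the small differences of the members was not tested. At the 1.5-fold threshold 0 members were lower, against 0.370% of all kept genes, and 0 higher, against 0.378%. At 0.32 on the log2 scale 0 were lower, against 2.78%, and 0 higher, against 2.11%. These shares depend on the scaling: with each array centred on its own median 26 members and 77.0% of all genes were lower, with repeated quantile normalization 18 and 36.6%, and with a loess curve removed 17 and 45.9%.

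On the probe sets that represent the genes, the largest A375M differences among members were those of a collagen hydroxylase and a kinase. P4HA1 read 9.92 in the knock-down and 10.23 in the control array, which is 1.24-fold lower (-0.32), on its only probe set above the median. PDK1 read 8.73 in the knock-down and 9.00 in the control array, a difference of -0.27, with another probe set at -0.14 and a dim one at 0.22. Both exceed the gauge. Neither reaches the smaller threshold, which is 0.3219 on the log2 scale, though P4HA1 at -0.3157 falls just short of it. Averaged over all probe sets, dim ones included, P4HA1 was at -0.16 and PDK1 at -0.064, while PKM was at -0.18 and PFKL at -0.17, so the order depends on the probe set rule. HIF1A read 12.79 in the knock-down and 12.92 in the control array on its only probe set, a difference of -0.14, and EGLN1 differed by -0.28 to -0.077 on 3 kept probe sets. VEGFA read 10.79 in the knock-down and 10.93 in the control array, a difference of -0.14, and 3 of its 4 probe sets were lower with the other identical. Thus the sensing genes HIF1A and EGLN1 and the ligand VEGFA were lower on their kept probe sets, with that 1 exception. EGLN3 read 4.68 in the knock-down and 4.57 in the control array, next to the knock-down array's median of 4.67 and below the control array's of 4.64. It passed the filter only through the knock-down array, so no direction is read from it.

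Glycolysis genes in A375M had a median of -0.043 over 16 genes. Of these 11 (68.8%) were lower, 3 higher and 2 identical, against 40.3%, 29.0% and 30.8% of all kept genes. PKM read 10.01 in the knock-down and 10.10 in the control array, a difference of -0.096, and -0.26 on its other probe set. PFKL differed by -0.12 and -0.21, PFKP by -0.10, SLC2A1 by -0.096 and ALDOC by -0.12. PFKFB4 was on the other side at 0.16, although its other probe set differed by -0.046. GAPDH and PGAM1 were identical in both arrays, as were ADM at 8.65, BNIP3L at 10.31 and P4HA2 at 10.21. ENO2, which led the LM8 list, read 7.69 in the knock-down and 7.78 in the control array, a difference of -0.092, and ANKRD37 read 7.16 in the knock-down and 7.27 in the control array, a difference of -0.11. NDRG1 differed by -0.063. The remaining glycolysis members, HK1, HK2, PFKFB3, ALDOA, TPI1, PGK1 and ENO1, ranged from -0.078 to 0.053, with LDHA at -0.068 and MXI1 at -0.0077. The signs of HK1, HK2, ALDOA, MXI1 and BNIP3 turned under at least 1 other scaling, so these members have no settled direction. BNIP3 differed by 0.022 and -0.13 on its probe sets. CA12 differed by 0.16 on the probe set that represents it and by 0 to 0.031 on its others above the median, and CA9 had no human probe set named here.

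Set side by side, 28 members were kept in both lines. Of these 16 (57.1%) were lower in both and 0 higher in both, against 20.7% of all 8981 genes kept in both lines being lower in both. A further 5 were lower in LM8 and higher in A375M, 4 the reverse, and 3 lower in LM8 and identical in A375M. As most members were lower in each line taken alone, this count does not show agreement gene by gene. In 22 the difference was larger in size in LM8, and in 6 in A375M, and over all genes 68.1% were larger in LM8. Across these 28 genes, which share the arrays and are not replicates, the differences of the 2 lines had Pearson's r of -0.10 and Spearman's rho of -0.21. Over all 8981 genes kept in both lines these coefficients were 0.033 and 0.0080. The 3 members lowest in LM8, Eno2, Ankrd37 and Adm, differed by -0.092, -0.11 and 0 in A375M. The contrast between the lines itself was not tested, since each group held 1 array.

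**Figure D4:**
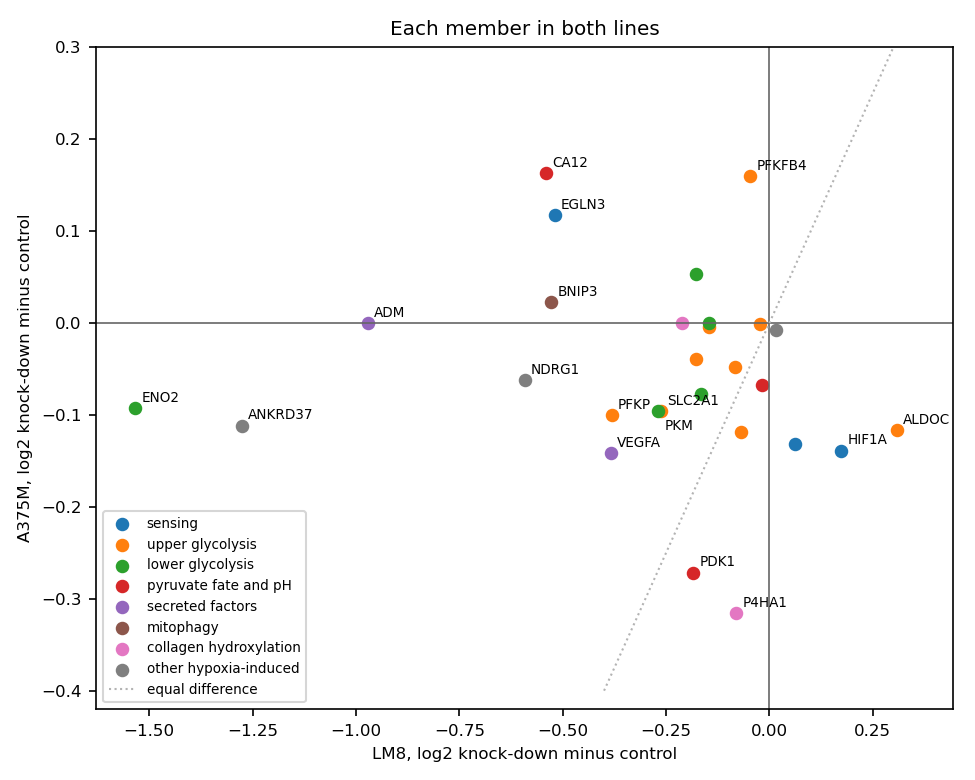
Difference in LM8 (x axis) against difference in A375M (y axis), both log2 knock-down minus control, for the 28 members kept in both lines, coloured by role; the dotted line marks equal differences. ENO2 (-1.53 in LM8, -0.092 in A375M), ANKRD37 (-1.28, -0.11) and ADM (-0.97, 0) lie far left near the horizontal axis, and PDK1 and P4HA1 lie lowest.

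Other genes of the pathway were counted from 4 further lists of 83 genes. Like the members, these lists were chosen with earlier results of these data known. Their shares beside those of all genes are therefore descriptions and lend the members no independent support. In LM8, 27 of 42 kept hypoxia targets and HIF regulators (64.3%) were lower, against 46.0% of all kept genes, and 15 higher, with a median of -0.14. Past 1.5-fold 7 (16.7%) were lower, against 1.31% of all, and 1 (2.38%) higher, against 1.16%. Ccng2, a cyclin G2 gene known to be induced by hypoxia, read 8.27 in the knock-down and 9.86 in the control array, a difference of -1.60. Bhlhe40, a transcriptional repressor gene induced by HIF, read 8.64 in the knock-down and 9.61 in the control array, a difference of -0.97. Ero1a, an oxidase of disulfide formation in the endoplasmic reticulum, differed by -1.05 to -0.71 on 3 kept probe sets. Pygl, a glycogen phosphorylase gene, differed by -0.73, and Insig2, which restrains sterol synthesis, by -0.64 to -0.25 on 3 kept probe sets. The glucose transporter gene Slc2a3 differed by -0.60 and the lactate exporter gene Slc16a3 by -0.65. The gene on the other side was Epas1, which encodes the HIF-2 alpha subunit and read 12.30 in the knock-down and 11.60 in the control array, a difference of 0.70, with its other kept probe set at 0.33.

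Glycolysis genes outside the members lay near the shares of all genes in LM8. Of 15 kept genes 5 (33.3%) were lower, against 46.0% of all kept genes, 9 (60.0%) higher, against 53.8%, and 1 identical, with a median of 0.058, against 0.015, and 0 reached 1.5-fold. Genes of the mitochondrial pyruvate carrier and of pyruvate dehydrogenase and its regulators, here called pyruvate entry, had a median of -0.033 over 10 genes. Of 4 genes of the glucose response 3 were higher, and 2 of them past 1.5-fold, against 1.16% of all kept genes. Txnip, which is induced by glucose and restrains its uptake, read 8.66 in the knock-down and 7.47 in the control array, a difference of 1.19, and 0.72 on its other kept probe set. Arrdc4, a related arrestin-domain gene, read 8.74 in the knock-down and 8.06 in the control array, a difference of 0.68, and 1.31 on its other. In A375M the lists had medians of -0.037 over 42 hypoxia genes, 0 over 13 glycolysis genes, 0 over 11 pyruvate entry genes and -0.025 over 4 glucose response genes. Of the 42 hypoxia genes 27 (64.3%) were lower, against 40.3% of all kept genes, 9 (21.4%) higher, against 29.0%, and 6 identical. Their median lay within the gauge of 0.071. Only TMEM45A, a transmembrane protein gene among them, passed 1.5-fold in A375M, at 7.98 in the knock-down and 7.36 in the control array. It makes up 2.38% of these hypoxia genes, against 0.378% of all kept genes being that much higher.

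**Figure D5:**
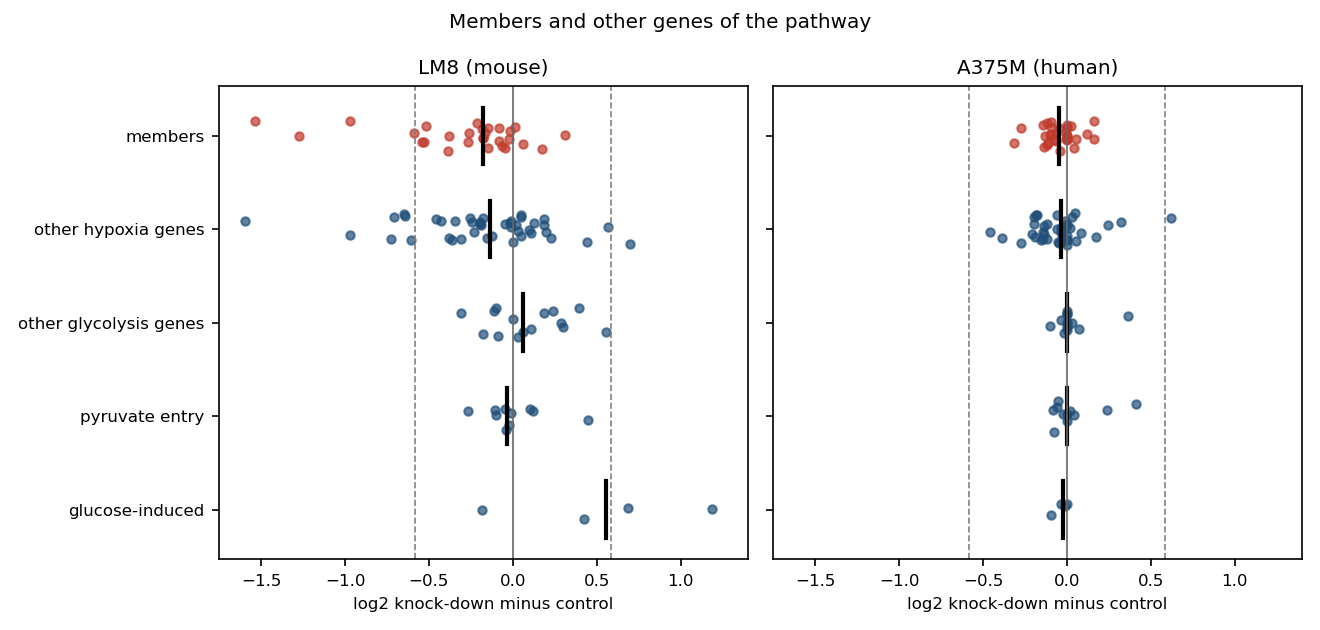
Difference, knock-down minus control (x axis, log2), of each kept member (red) and of each kept gene of 4 other pathway lists (blue) in LM8 (left) and A375M (right); black bars are medians and dashed lines 1.5-fold, and vertical scatter within a row carries no value. In LM8 the members (median -0.18) and the other hypoxia genes (-0.14) lie left of 0, the other glycolysis genes do not (0.058), and 2 glucose-induced genes lie past 1.5-fold on the right.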

How the data were processed

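The data were 4 Affymetrix 3' arrays hybridised with biotinylated cRNA, 1 for each group named in the sample titles. The deposited values are log2 levels per probe set that the authors made with RMA, as named in the submitters' processing notes without software or version. RMA equalises the arrays, so a global shift would not be seen. Symbols came from the platform annotation, and probe sets carrying several symbols were set aside. For each gene the probe set with the highest mean over both arrays stood for the gene, which was kept if that probe set exceeded the 50th percentile (controls left out) on either array. Differences were knock-down minus control, described at 1.5-fold beside the same share of all kept genes. All members were named whatever their values, and other pathway genes only where kept and at least 1.5-fold different. The members and lists were chosen with earlier results of these data known. Scripts used Python 3.11.15, pandas 2.3.3 and statsmodels 0.14.6 and were tested on simulated data. Alternatives were no filter or the 70th percentile, centring, repeated quantile normalization, loess removal (span 0.4), averaging the probe sets of a gene, no _x_at or _s_at probe sets, 32 added to linear values, a smaller or a 2-fold threshold and, chosen after seeing the data, a filter passed in both arrays. CA9 in human and Eno1 in mouse were not analysed here.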

Additional observations from a re-analysis of the deposited data

Results flagged for a closer look

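Of the members kept in both lines 4 had differences of opposite sign, each at least as large as the gauge of its line. HIF1A differed by 0.17 in LM8 and -0.14 in A375M, and EGLN3 by -0.52 in LM8 and 0.12 in A375M. ALDOC differed by 0.31 in LM8 and -0.12 in A375M, and CA12 by -0.54 in LM8 and 0.16 in A375M. EGLN3 in A375M and ALDOC in LM8 passed the filter only through the knock-down array, where they were higher, and lay below the control array's median, so their signs there support no contrast. For CA12 the A375M difference was 0 without probe sets ending in _x_at or _s_at and 0.036 with the mean of its probe sets, and the LM8 difference was -0.19 with that mean. Each rests on 1 array per group, and the difference between the lines was not tested.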

How the results depend on the processing

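No paired analysis was possible because each group held 1 array and the labels give no replicate numbers. The LM8 median lay between -0.19 and -0.17 under all 8 alternatives to the processing. In each, 23 to 25 of 26 to 29 kept members were lower, against 43.0% to 48.3% of all kept genes. The LM8 count at least 1.5-fold lower was 3 or 4 under these, against 0.773% to 1.34% of all kept genes. It was 9 at a log2 threshold of 0.32, against 5.28% of all, and 2 at 2-fold, against 0.318%. In A375M the median lay between -0.078 and -0.013 and 0 members were 1.5-fold lower under any of these. Without probe sets ending in _x_at or _s_at 12 A375M members were lower, since 19 rather than 31 were kept. In that setting 38.2% of all kept genes were lower. A filter passed in both arrays was an alternative chosen after seeing the data. With it 24 of 27 LM8 members were lower, against 46.2% of all kept genes, with a median of -0.18. In A375M 20 of 30 members were lower, against 40.5% of all kept genes, with a median of -0.055. Of 247 LM8 values of single members under the alternatives 6 changed sign, and of 264 A375M values 9 did. With 32 added before the log2 Eno2 was at -1.05 and Ankrd37 at -1.13, and with the mean of its probe sets Hk1 was at 0.025. Values near the array median carry little signal over background.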

Other observations

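The mouse array holds control probe sets for the transferrin receptor transcript, the product of Tfrc, which imports iron and is induced by hypoxia. In LM8 all 3 differed by -0.41 to -0.27, knock-down minus control. The ordinary probe sets of Tfrc disagreed in sign, with the brightest at 11.52 in the knock-down and 11.43 in the control array, a difference of 0.098, and the others at -0.45 and -0.30, so no direction can be read for this transcript. This gene was singled out after its values were seen.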
